A study of Homo sapiens with 18 samples.

Results

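LNCaP cells given VPC-13789 were compared with LNCaP cells given enzalutamide, both in the absence of dihydrotestosterone (DHT), the potent natural androgen. The comparison holds the samples whose titles name either agent with ethanol, 3 biological replicates a group, which is 6 of the 18 samples of the series. LNCaP is an androgen-responsive human prostate cancer line with a functional androgen receptor. All cultures first spent 48 h in 5% charcoal-stripped serum, depleted of steroids, and the treatment then lasted 6 h. The protocol text gives 1.5 µM for enzalutamide and 3 µM for VPC-13789, so the doses differ. It describes them for the arms that also received 10 nM DHT, and the same text stands for the arms without it. The other groups are vehicle without DHT, DHT alone, and each compound with DHT. A single cell line was used and no batch is labelled. The p-values measure only the spread between cultures, which the authors' DESeq2 fit took as a single value per gene for all 6 groups. They do not measure the spread within the groups compared alone.

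Enzalutamide occupies the hormone pocket of the androgen receptor and keeps the receptor from activating its targets, such as the gene of prostate-specific antigen. The series title concerns compounds aimed at another surface of the receptor, binding function 3, and the sources used here do not state how VPC-13789 relates to it. Cells also adjust cholesterol by a feedback circuit. When sterol in the endoplasmic reticulum is low, the transcription factor SREBP2 is no longer retained by INSIG1 and raises the genes of cholesterol synthesis and uptake. When oxidised sterols are plentiful, the nuclear receptor LXR raises sterol exporters such as ABCG1.

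No gene passed the test between the compounds without DHT. Of 27574 genes, 0 (0%) had an adjusted p under 0.05 in a Wald test with Benjamini-Hochberg adjustment on the authors' DESeq2 estimates, and 252 (0.914%) had an unadjusted p under 0.05. The lowest adjusted p was 1. Every difference between the compounds without DHT named below is therefore a measured value that did not pass over all genes. Of those 252 genes, 236 averaged under 100 normalized counts over the 18 samples. DAO, with an average of 2.46, had the lowest unadjusted p of all, 0.000317505, at a log2 difference of -3.82 (SE 1.06). Among the 10819 genes averaging at least 100, called well measured here, 16 (0.148%) had an unadjusted p under 0.05. Of these, 10 were lower (0.0924%) and 6 higher (0.0555%) with VPC-13789.

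Differences between the compounds were small for nearly every well-measured gene. The median log2 difference, VPC-13789 minus enzalutamide, was 0.01, its SD across genes was 0.08, and 84.9% of these genes lay within 0.1 of 0. The median SE of a gene's difference was 0.27, larger than the SD across genes. The SD of the Wald statistic across genes was 0.36, and 0.148% of these genes had an unadjusted p under 0.05. With errors that matched unchanged genes, that share would be near the threshold itself. The errors were thus wide for this contrast, and the absence of calls does not show that the compounds act alike. Only 3 well-measured genes (0.0277%) differed by more than 1.5-fold, among them INSIG1, which was lower, and ABCG1, which was higher with VPC-13789. The same contrast with DHT, from separate libraries, had an SD of 0.50 across genes, 12.1% within 0.1 of 0 and 27.2% over 1.5-fold.

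**Figure D1:**
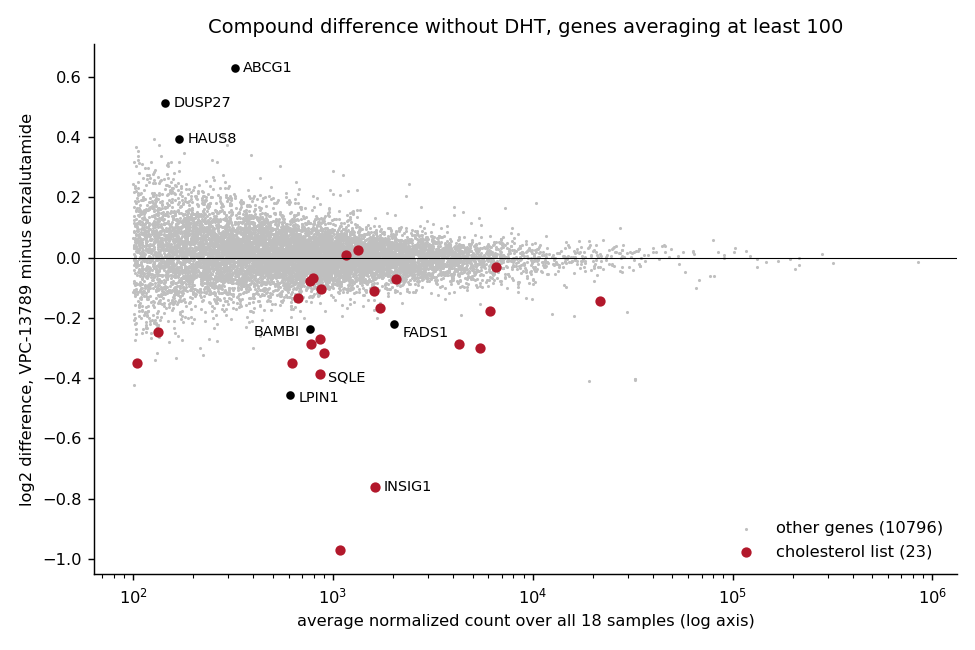
Each point is 1 of the 10819 genes averaging at least 100 normalized counts, with the average over all 18 samples on the x axis (log scale) and the log2 difference VPC-13789 minus enzalutamide without DHT on the y axis. INSIG1 at -0.76 lies far below 0 and ABCG1 at 0.63 farthest above, while 84.9% of the genes lie within 0.1 of 0.

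The cholesterol list held 24 genes of synthesis, uptake and their control, of which 23 were well measured. The remaining gene averaged under 100 and was not counted. Of the 23, 21 were lower with VPC-13789, against 45.9% of all well-measured genes. The list, chosen with earlier results of these data known, had a median log2 difference of -0.18 and a median SE of 0.32. Over all well-measured genes the median difference was 0.01. None passed after adjustment over all genes, and 2, INSIG1 among them, had an unadjusted p under 0.05, against 0.148% of all well-measured genes. Centring on genes of like GC content left the median at -0.18 and the count at 21, against 50% of all well-measured genes.

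Promoters were found in the RefSeq table for 18 of the 24 genes. Those of 4 list genes, picked by hand, are shown. Each carries a motif that SREBP2 or a partner factor is known to use, but so do most of the 18, of which 16 hold a CCAAT box. The log2 differences of the 4 genes shown ran from -0.76 (INSIG1) to -0.18 (SREBF2, which encodes SREBP2). Each sequence is the 250 bases before the RefSeq start of the gene (GRCh38.p14), 5′ to 3′ on the gene's strand. The windows are INSIG1 at chr7:155297628-155297877 (+), HMGCS1 at chr5:43313413-43313662 (-), MSMO1 at chr4:165327419-165327668 (+) and SREBF2 at chr22:41832855-41833104 (+). HMGCS1 has 2 RefSeq starts, and the window with more matches is shown. Capitals mark the CCAAT box, the E-box CACGTG and TCACCCC, which is 7 letters of the sterol regulatory element, or their reverse complements. Of the promoters shown, only that of SREBF2 holds TCACCCC. INSIG1 holds a CCAAT box and an E-box, and HMGCS1 and MSMO1 hold CCAAT boxes only.
INSIG1: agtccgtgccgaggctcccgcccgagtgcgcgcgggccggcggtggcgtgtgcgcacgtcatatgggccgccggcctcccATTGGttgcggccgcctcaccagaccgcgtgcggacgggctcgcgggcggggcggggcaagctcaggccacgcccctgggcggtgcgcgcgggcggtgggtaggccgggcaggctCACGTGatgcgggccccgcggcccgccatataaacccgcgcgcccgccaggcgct
HMGCS1: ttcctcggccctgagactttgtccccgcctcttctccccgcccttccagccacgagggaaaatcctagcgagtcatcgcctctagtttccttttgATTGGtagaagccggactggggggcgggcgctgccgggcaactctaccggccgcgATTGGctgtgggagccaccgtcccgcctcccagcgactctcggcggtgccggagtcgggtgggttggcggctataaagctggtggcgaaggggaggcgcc
MSMO1: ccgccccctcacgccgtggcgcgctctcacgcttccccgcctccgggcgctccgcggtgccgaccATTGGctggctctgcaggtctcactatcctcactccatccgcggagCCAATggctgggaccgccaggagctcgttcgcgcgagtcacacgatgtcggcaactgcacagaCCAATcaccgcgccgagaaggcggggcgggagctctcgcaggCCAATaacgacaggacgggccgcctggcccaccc
SREBF2: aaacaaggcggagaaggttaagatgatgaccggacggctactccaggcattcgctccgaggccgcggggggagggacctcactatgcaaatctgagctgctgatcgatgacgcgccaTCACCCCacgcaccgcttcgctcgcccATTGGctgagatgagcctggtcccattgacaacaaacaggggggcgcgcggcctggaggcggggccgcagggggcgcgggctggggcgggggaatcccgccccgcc

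TCACCCC, read on both strands, was in 2 of the 18 genes' promoters, MVK and SREBF2, which is 11.1%. It was in 5.79% of the 27305 genes in the table and in 6.53% of the 8233 well-measured genes with a promoter. The CCAAT box, which NF-Y binds, was in 16 of the 18, against 37.0% of all genes and 42.3% of the 8233 well-measured genes with a promoter. The E-box CACGTG was in 2 of the 18, INSIG1 and SC5D, which is 11.1%, against 7.73% of all genes and 11.96% of the well-measured genes with a promoter. A gene counted where any of its listed starts held the letters, and none of the marked stretches overlap. These are matches of letters in a window, not binding data.

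INSIG1 (chr7:155297776-155310235), itself raised by SREBP and part of the feedback brake on it, had among the lowest differences of the 10819 well-measured genes. Its level in normalized counts, recovered as a group value from the authors' deposited tables, was 2015 with vehicle, 1897 with enzalutamide and 1120 with VPC-13789. The low group was VPC-13789, and vehicle and enzalutamide were close. The tables give no value per library, so overlap between replicates cannot be given. The log2 difference was -0.76 (SE 0.21, 95% interval -1.18 to -0.34, unadjusted p = 0.000367, adjusted p = 1), or 1.69-fold lower. In the authors' deposited tables, which share the vehicle samples, the log2 change of INSIG1 against vehicle was -0.09 with enzalutamide and -0.85 with VPC-13789.

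Enzymes of the synthesis pathway followed in size, with intervals that all included 0. HMGCS1, which makes HMG-CoA at the entry to the pathway, had a log2 difference of -0.32 (SE 0.41). The mevalonate enzymes MVK and IDI1 were at -0.29 (SE 0.27) and -0.27 (SE 0.51). FDFT1, which commits farnesyl units to squalene, was at -0.30 (SE 0.26), and SQLE, which oxidises squalene, at -0.39 (SE 0.22). Of the later steps, CYP51A1 was at -0.35 (SE 0.32), MSMO1 at -0.35 (SE 0.35) and DHCR7 at -0.29 (SE 0.37). STARD4, a sterol carrier, was at -0.25 (SE 0.56). PMVK at 0.01 and EBP at 0.03 were the only 2 of the 23 above 0.

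**Figure D2:**
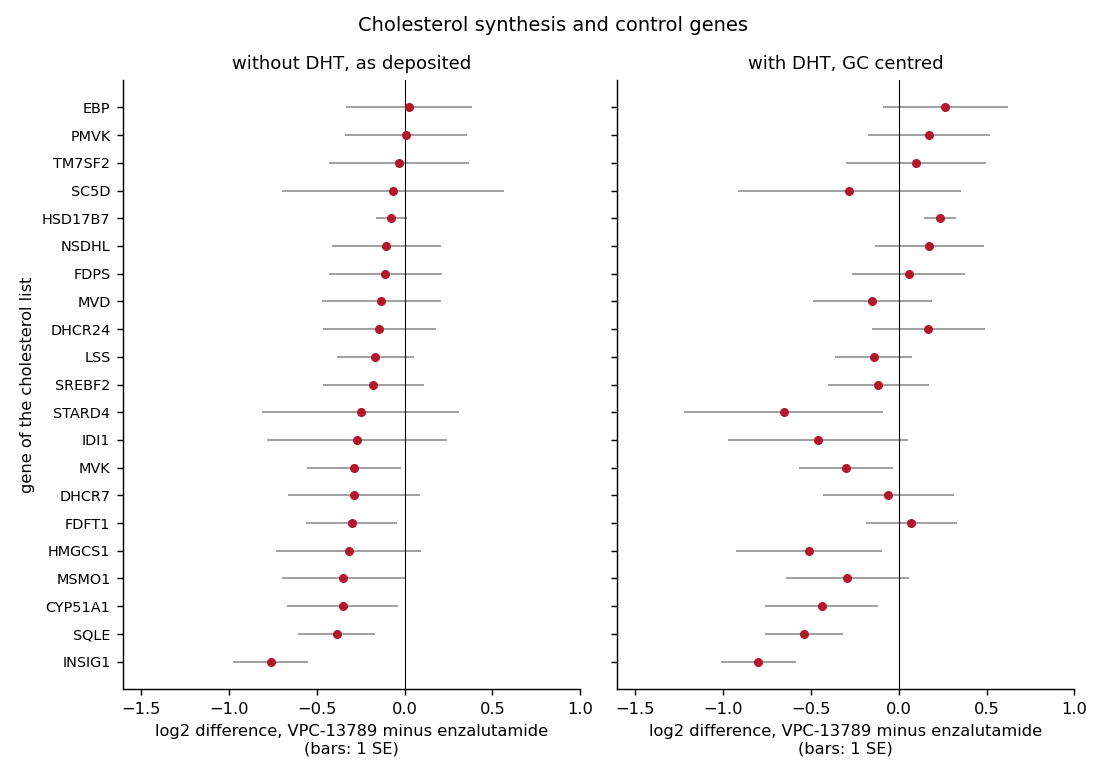
Points are the log2 differences VPC-13789 minus enzalutamide for 21 well-measured genes of the cholesterol list, without DHT as deposited and with DHT after GC centring, and bars are 1 SE. Without DHT 19 of the 21 points lie below 0 and 15 of the bars cross it, with INSIG1 farthest to the left.

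LPIN1, a phosphatidate phosphatase of lipid synthesis, also lay among the lowest differences and was named after its value was seen. Its levels in normalized counts were 768 with vehicle, 711 with enzalutamide and 519 with VPC-13789. The log2 difference was -0.46 (SE 0.36, unadjusted p = 0.208). In the list of fatty acid synthesis, 12 of 15 well-measured genes were lower, against 45.9% of all, with a median of -0.08. FADS1, the delta-5 desaturase (chr11:61799625-61829318), had levels of 2119, 2066 and 1774 normalized counts with vehicle, enzalutamide and VPC-13789. Its log2 difference of -0.22 was modest but its error was small (SE 0.06, 95% interval -0.34 to -0.10, unadjusted p = 0.000517, adjusted p = 1). SCD, the stearoyl desaturase, was at -0.19 (SE 0.17), ACSL1, an acyl-CoA synthetase, at -0.19 (SE 0.10), and FASN, the fatty acid synthase, at -0.18 (SE 0.43). SREBF1, which encodes the SREBP of fatty acid genes, was at -0.01 (SE 0.29).

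ABCG1 (chr21:42199689-42297244), a cholesterol exporter and LXR target, had the highest difference of the 10819 genes. Its levels in normalized counts were 281 with vehicle, 332 with enzalutamide and 514 with VPC-13789. VPC-13789 was the high group, opposite to INSIG1. The log2 difference was 0.63 (SE 0.28, 95% interval 0.08 to 1.18, unadjusted p = 0.0243, adjusted p = 1), or 1.55-fold higher. The other LXR targets named here, MYLIP and ABCA1, had lower values, but their difference from ABCG1 was not tested. MYLIP, a ubiquitin ligase of sterol control, was at 0.27 (SE 0.17, unadjusted p = 0.0977). ABCA1, the other main cholesterol exporter, averaged only 25.2 and was at -0.24 (SE 0.56).

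**Figure D3:**
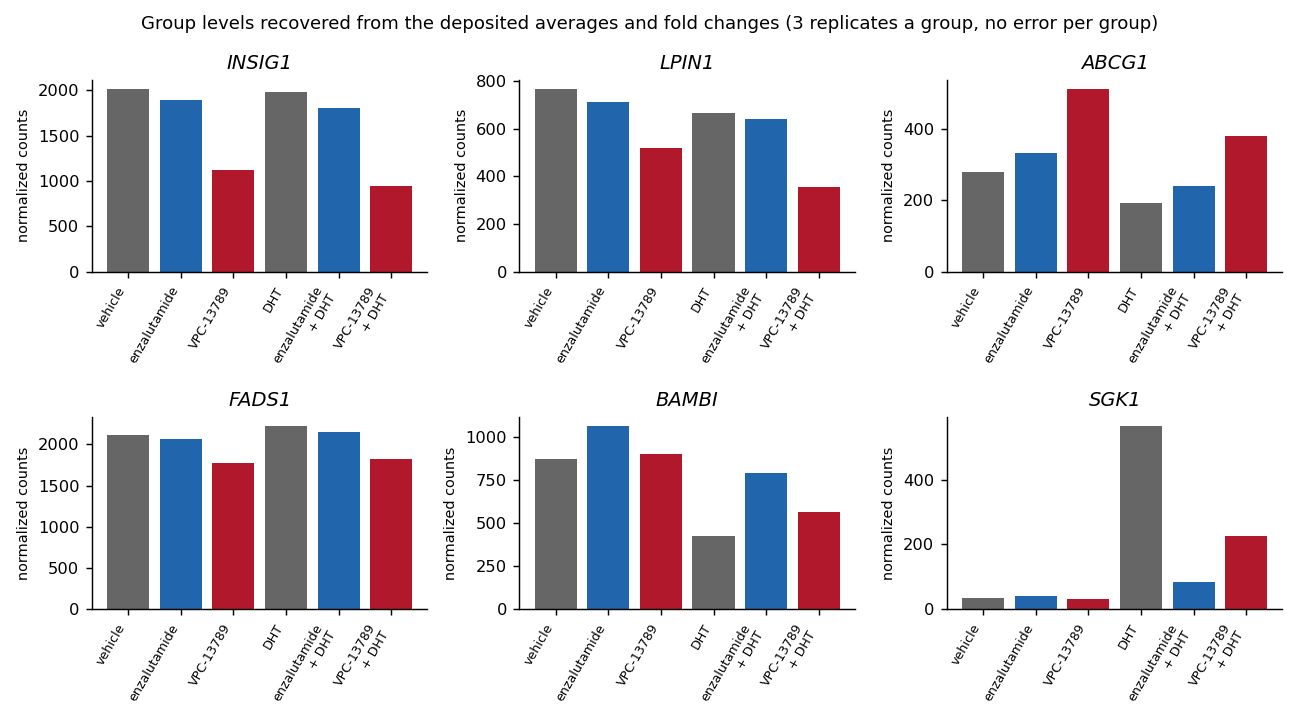
Bars are group levels in normalized counts, on axes from 0, for each of the 6 groups of 3 replicates, recovered from the deposited averages and fold changes, with no error per group. For INSIG1 and LPIN1 the VPC-13789 bars are the lowest both without and with DHT, and for ABCG1 they are the highest on either side.

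Androgen-regulated genes, the readout closest to the receptor, differed little between the compounds without DHT. Of 46 genes listed as induced by androgen, 38 were well measured, 26 were higher with VPC-13789 against 54.1% of all well-measured genes, and the median log2 difference was 0.02. None had an unadjusted p under 0.05, and the differences ran from -0.33 (SGK1) to 0.18. These genes were counted by their average over all 18 samples, which the DHT groups raise, and 2 of the 38, SGK1 and CHRNA2, were under 100 normalized counts in both groups compared. Without them, a choice made after seeing the data, 26 of 36 were higher, the median was 0.02 and the lowest difference -0.14. KLK3, the gene of prostate-specific antigen, had a log2 difference of 0.10 (95% interval -0.46 to 0.65). TMPRSS2, a protease gene under strong androgen control, was at 0.01 (95% interval -0.20 to 0.21), from levels of 1121 with enzalutamide and 1127 with VPC-13789. FKBP5, a co-chaperone of steroid receptors, was at 0.03 (95% interval -0.41 to 0.47), and KLK2, a second kallikrein, at 0.14 (95% interval -0.45 to 0.74). PMEPA1, a membrane adaptor of TGF-beta signalling, was at 0.07 (95% interval -0.20 to 0.33). The interval for TMPRSS2 holds differences of at most 0.21 on the log2 scale, while that for KLK3 also holds a difference over 1.5-fold.

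ZBTB16, a zinc-finger repressor induced by androgens and glucocorticoids, had levels of 218 normalized counts with vehicle, 145 with enzalutamide and 166 with VPC-13789. It was the only gene called in the authors' deposited table of enzalutamide against vehicle (1 of 27574, 0.00363%), at a log2 change of -0.59 (SE 0.12, adjusted p = 0.0139 by DESeq2). For VPC-13789 against vehicle, the authors' deposited DESeq2 table calls 0 genes (0%), with 212 at an unadjusted p under 0.05, and puts ZBTB16 at -0.39. The direct difference for ZBTB16 between the compounds was 0.19 (SE 0.12, unadjusted p = 0.0934) and did not pass, so the call against vehicle in only 1 table does not show a difference between them.

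Of 19 well-measured genes listed as repressed by androgen, 11 were lower with VPC-13789, against 45.9% of all well-measured genes, and the median was -0.02. An unadjusted p under 0.05 was found for 2 of them, against 0.148% of all. BAMBI (chr10:28677342-28682939), a decoy receptor of TGF-beta family signals, had levels of 871 with vehicle, 1062 with enzalutamide and 902 with VPC-13789. Here enzalutamide was the group apart, above both others. The difference was -0.24 (SE 0.08, 95% interval -0.38 to -0.09, unadjusted p = 0.00182, adjusted p = 1). SDC4, the proteoglycan syndecan 4, had the same order, with levels of 1100, 1251 and 1106 and a difference of -0.18 (SE 0.08, unadjusted p = 0.0338). CAMK2N1, an inhibitor of CaM kinase II, was at 0.00 (SE 0.07), and its sign turned when the median of well-measured genes was subtracted.

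The list of ATF4 targets and amino acid stress genes, which cells raise when amino acids or protein folding are limiting, lay slightly above 0. Of its 20 well-measured genes, 19 were higher with VPC-13789, against 54.1% of all, with a median log2 difference of 0.14, and 0 had an unadjusted p under 0.05. CHAC1, which degrades glutathione, had levels of 257 with vehicle, 282 with enzalutamide and 365 with VPC-13789, a difference of 0.37 (SE 0.46). SLC7A11, the cystine importer, was at 0.29 (SE 0.51), DDIT3, which encodes CHOP, at 0.24 (SE 0.23), TRIB3, a pseudokinase, at 0.21 (SE 0.39) and ATF4 itself at 0.16 (SE 0.12). In the list of the unfolded protein response 15 of 16 were higher, or 13 of 16 after GC centring, but the median was 0.04. Its highest member was DNAJB9, a chaperone of the endoplasmic reticulum, at 0.41 (SE 0.56). The 95% interval of each of these differences included 0.

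Other lists had medians within 0.06 of 0, and over all well-measured genes 54.1% were higher and 45.9% lower. Ribosomal protein genes had 22 of 25 higher and a median of 0.02, and mitosis genes 15 of 17 higher, or 12 of 17 after GC centring, and a median of 0.05. Transcripts encoded in mitochondria had 11 of 13 lower and a median of -0.02, and heat shock genes 9 of 12 lower and a median of -0.04. The p53 targets had a median of 0.02, S-phase genes 0.04, glucocorticoid-regulated genes 0.03, NRF2 targets 0.00, hypoxia genes 0.00 and immediate early genes 0.03. None of these lists had a member with an unadjusted p under 0.05 among its well-measured genes.

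**Figure D4:**
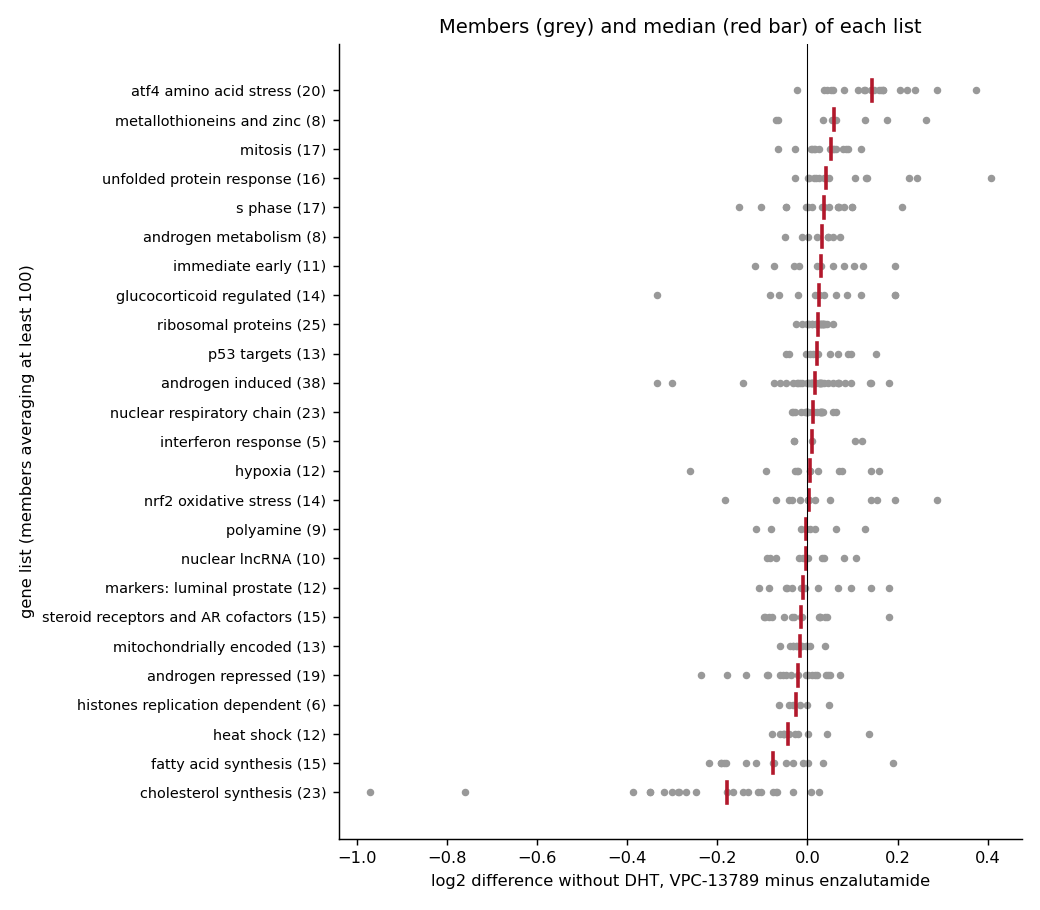
Grey points are the log2 differences VPC-13789 minus enzalutamide without DHT of the well-measured members of each list, and red bars are the medians. The cholesterol list has the lowest median, -0.18, and the ATF4 list the highest, 0.14. The medians are 0.02 for genes induced by androgen, -0.02 for genes repressed by it and 0.03 for androgen metabolism.

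The remaining genes with an unadjusted p under 0.05 formed no list fixed here. Lower with VPC-13789 were IFFO2 at -0.27 (SE 0.11), HIST1H2BG, a histone gene of a family with near-identical copies, at -0.26 (SE 0.13), EXOSC2, a subunit of the RNA exosome, at -0.20 (SE 0.10), ZNF552 at -0.18 (SE 0.08) and KIAA1549 at -0.18 (SE 0.08). Higher was HAUS8, a subunit of the augmin complex of the spindle, with levels of 145 with enzalutamide and 191 with VPC-13789. Its difference was 0.39 (SE 0.14, unadjusted p = 0.00394, adjusted p = 1). CMC1, a factor in cytochrome oxidase assembly, was at 0.23 (SE 0.09), ACYP2, an acylphosphatase, at 0.24 (SE 0.11), HSPA1L, a heat shock protein with close paralogs, at 0.30 (SE 0.14) and FP236383.1 at 0.34 (SE 0.17). The naming rule also takes 4 higher genes beyond that threshold, LINC00839 at 0.20, ALG2 at 0.15, BCL6 at 0.19 and NDEL1 at 0.12. DUSP27 at 0.51 (SE 0.30) and PELI1 at -0.42 (SE 0.38), chosen after their values were seen, differed more in size with wider errors.

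The change of each compound against vehicle followed transcript GC content, while the difference between the compounds without DHT hardly did. Both changes share the same 3 vehicle cultures, so a shift in vehicle and a shift with both compounds cannot be told apart. Across 10777 nuclear well-measured genes the Spearman correlation with GC content was 0.77 for enzalutamide against vehicle and 0.74 for VPC-13789 against vehicle, both from the authors' deposited tables. For the difference without DHT it was -0.09, and for the difference with DHT 0.83. Over the lowest eighth of GC content, the median difference was 0.04 without DHT and -0.74 with DHT. Over the highest eighth it was 0.01 and 0.52. The part of GC content in the differences with DHT was not tested.

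**Figure D5:**
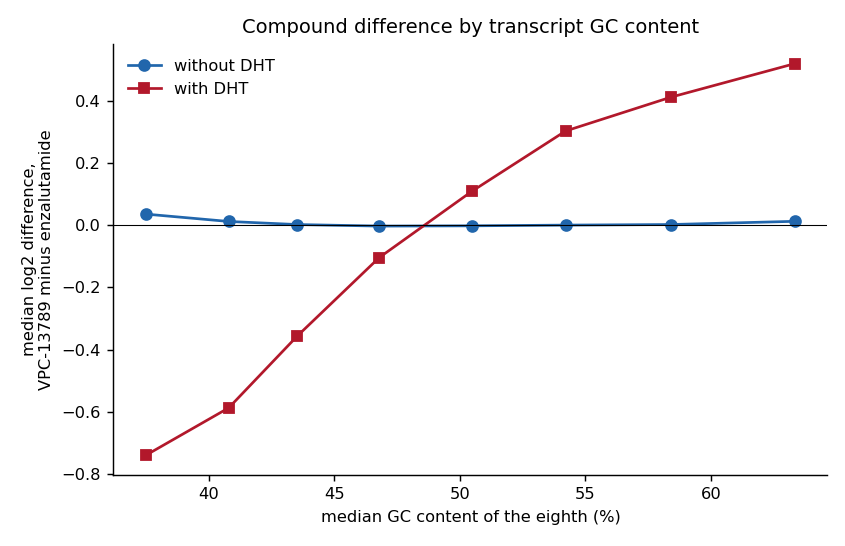
Well-measured nuclear genes were split into eighths by the GC content of their longest transcript. The x axis is the median GC content of each eighth in percent, and the y axis the median log2 difference VPC-13789 minus enzalutamide. The line without DHT stays within 0.04 of 0, and the line with DHT climbs from -0.74 to 0.52.

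With DHT, INSIG1 and ABCG1 kept their side. INSIG1 had levels of 1980 with DHT alone, 1804 with enzalutamide and 945 with VPC-13789, a difference of -0.93 (SE 0.21, unadjusted p = 1.29e-05, adjusted p = 0.0793), and its adjusted p was 0.011 after GC centring, at -0.80. GC centring raised the calls with DHT to 2.67% of genes. The SE of INSIG1 was unchanged and its difference smaller, so its lower adjusted p came from more genes having a low p. The SD of the Wald statistic across well-measured genes was 1.47 with DHT and 1.60 after GC centring, against 0.36 without DHT. Whether the errors were too narrow with DHT was not tested. ABCG1 had levels of 193, 241 and 381, a difference of 0.66 (SE 0.28, unadjusted p = 0.0200 by the Wald test). After GC centring it was 0.38 with the same SE. With DHT as deposited, 7.21% of well-measured genes had an unadjusted p under 0.05, and the 95th percentile of the differences was 0.64. After GC centring that share was 14.7%. As deposited, the cholesterol list as a whole did not keep its side. Of its 23 genes 11 were lower, against 49.2% of all well-measured genes, and the median was 0.11. By the Wald test 8 of the 23 were lower at an unadjusted p under 0.05 and 0 higher, against 4.27% and 2.94% of all. After GC centring 14 of 23 were lower, against 49.8%, and the median was -0.14, below 0 as without DHT. Then 3 were lower and 1 higher at that threshold, against 6.13% and 8.56% of all. Across the 10819 well-measured genes the differences without and with DHT had a Pearson correlation of -0.05, and of 0.06 over 10800 genes after GC centring. These arms share no library, but they share the normalization and the dispersion fit.

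As deposited, SGK1, a kinase induced by androgens and glucocorticoids (chr6:134169246-134318112), was the only gene whose compound difference changed between the arms by a test of that change (1 of 27574 genes, 0.00363%). After GC centring 194 of 27391 genes (0.708%), SGK1 among them, passed the same test. Without DHT its levels were low in all groups, 34.7 normalized counts with vehicle, 39.0 with enzalutamide and 30.9 with VPC-13789. With DHT they were 567 for DHT alone, 82.1 with enzalutamide and 226 with VPC-13789. The compound difference was -0.33 (SE 0.27, unadjusted p = 0.212) without DHT and 1.46 (SE 0.22) with DHT, or 2.00 with DHT after GC centring. As deposited, their difference was -1.80 (SE 0.35, adjusted p = 0.00704). With DHT as deposited, 3 genes were called (0.0109%): SGK1 and CHST2, a sulfotransferase, were higher and BAMBI lower with VPC-13789. Without DHT, BAMBI also lay lower, at -0.24, and CHST2, with an average of 27.8, was at 0.23 (SE 0.34). For INSIG1 and ABCG1 the change of the difference between arms was 0.17 (SE 0.30) and -0.03 (SE 0.40), or 0.04 and 0.25 after GC centring, and neither passed in either form.

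Markers were those of luminal prostate cells. All 12 luminal prostate markers were well measured, with a summed level of 118316 normalized counts with enzalutamide and 117711 with VPC-13789. Of 6 basal markers 3 were in the tables, with sums of 89.3 and 90.5, and KRT14 averaged 7.60. Of 10 blood, immune and endothelial markers 6 were in the tables, and their sum of 900 and 875 was nearly all VWF, while PTPRC averaged 0.532. Of 10 stromal markers 8 were in the tables, with sums of 558 and 557. Of 7 neuroendocrine markers 5 were in the tables, with sums of 1102 and 1111, nearly all ENO2, while CHGA averaged 0.882. In these bulk cultures fewer cells of a kind and less RNA per cell cannot be told apart. The 27574 averages summed to 21181217 normalized counts; the depth of single libraries is unknown.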

How the data were processed

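Messenger RNA of 18 LNCaP cultures was sequenced. The submitters' processing notes name FastQC, STAR 2.6.1c, featureCounts, DESeq2 and GRCh38.p12. The sources used here do not give the annotation release, the strandedness or any filter. The authors deposited 5 DESeq2 tables of 27599 rows and no values per sample. Per the file headers they hold an average normalized count over all samples (a signal, not raw reads), log2 fold changes with their log2 standard errors, the Wald statistic (a score, the fold change over its error) and p-values with adjusted p-values. Here 25 rows whose gene name had become a date were left out.

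The difference between compounds is the log2 change of VPC-13789 against vehicle minus that of enzalutamide against vehicle. Its SE is the square root of the mean of the squared errors, tested by a Wald test with Benjamini-Hochberg adjustment over 27574 genes at 0.05, on the authors' DESeq2 estimates. The formula was tested on counts simulated with the recovered dispersions, and the SE there used those same dispersions. That test cannot show whether the errors suit these data. Group levels followed from the averages and fold changes, and dispersions from these and the errors. GC centring subtracted the median of well-measured genes in 20 bins of transcript GC content from GENCODE release 29, which covered 27391 genes (99.3%). Genes were named by unadjusted p, 10 a direction, among those averaging at least 100, plus fixed lists. The members and the 30 lists were chosen with earlier results of these data known; 25 of 465 listed genes were absent from the tables. Intervals are 95% and cover the spread between cultures as the authors' DESeq2 fit modelled it, with a shared dispersion per gene over all 6 groups. Python 3.11.15, pandas 2.3.3, numpy 2.4.6, scipy 1.17.1 and matplotlib 3.10.9 were used. Some genes of the lists are not reported singly here.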

Additional observations from a re-analysis of the deposited data

Results flagged for a closer look

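SGK1 met the test for an effect that differs between arms: its compound difference without DHT minus that with DHT was -1.80 on the log2 scale, from -0.33 without DHT and 1.46 with DHT, and as deposited it was the only gene of 27574 that passed. SGK1 averaged 30.9 to 39.0 normalized counts in the groups without DHT, so that arm rests on few reads. After GC centring 194 of 27391 genes passed, SGK1 among them. As deposited, it missed the threshold under the Benjamini-Yekutieli adjustment and with the summed squared errors.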

How the results depend on the processing

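Without DHT, 0 genes passed under each alternative except the SE rebuilt from group levels and dispersions, which gave 6, all averaging under 10. With DHT, the 3 genes became 732 (462 higher, 270 lower) after GC centring, 18 with the rebuilt SE, 0 with the summed squared errors, 7 at an adjusted p of 0.1 and 5 among genes averaging at least 100. For the change between arms, the 1 gene became 194 (32 higher, 162 lower) after GC centring, 14 with the rebuilt SE, 0 with the summed squared errors and 0 under the Benjamini-Yekutieli adjustment. Of 605 alternatives for 76 genes without DHT, 604 kept sign and side of the threshold. CAMK2N1 turned from 0.00 to -0.0040 when the median was subtracted. Only median and GC centring change a gene's difference, so the other settings could not turn its sign. Larger errors or a stricter adjustment could not add a call either, so this count says little about stability. The change of ABCG1 between arms turned to 0.25 after GC centring. Over 25 lists, all 76 alternative medians moved by less than the median SE of single genes, which was 0.17 to 0.38 by list. The list medians themselves ran only from -0.18 to 0.14. Such a bound could hardly be exceeded, so it does not show that the medians are stable. No paired analysis was possible because the deposited tables hold no value per sample; leaving out replicates and TMM scaling were not run for the same reason. The median SE of 0.27 limits what could be detected.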
